A study of Mus musculus with 32 samples.

Results

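Genes of the extracellular matrix other than the collagens, together with the enzymes and chaperones that process and crosslink collagen, were followed in the subcutaneous white fat of C57BL/6J mice, taken 9 days after either vertical sleeve gastrectomy (VSG), in which the greater part of the stomach is cut away, or sham surgery. The 45 genes were taken by name from the 18124 genes of the deposited table, with a mean normalized count of at least 10 over all 32 libraries asked of each, and all 45 passed. They fall into 6 roles: 8 matricellular and adhesive proteins, 13 elastic fibre and microfibril proteins, 6 small leucine-rich proteoglycans and versican, 8 basement membrane proteins, 4 lysyl oxidases and 6 proteins of intracellular collagen processing. Tissue came from 16 VSG animals and 16 sham animals, 4 of each surgery at each zeitgeber time (ZT, counted in hours from lights on), namely ZT1, ZT7, ZT13 and ZT19, which gives 8 groups. Both surgeries shared the diet schedule: a liquid diet was offered and then given alone before surgery, the animals were fasted overnight, and afterwards liquid diet was given alone at first and then beside a high-fat diet (HFD). No genotype, allele or drug was named beyond the strain. The weight loss of each animal was recorded in the labels with no unit and did not overlap between the surgeries, at 10.59 to 23.12 (median 16.0) after VSG and 2.15 to 8.96 (median 5.24) after sham surgery, so surgery and weight loss cannot be told apart in any comparison of the surgeries.

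The extracellular matrix of fat is a meshwork in which collagen fibrils, elastic fibres and microfibrils surround the lobules, and each adipocyte sits in its own basement membrane of laminins, nidogens, perlecan and type IV collagen. Newly made collagen chains are hydroxylated by prolyl and lysyl hydroxylases and held by the chaperone HSP47 in the endoplasmic reticulum, and after secretion lysyl oxidases turn lysines of collagen and elastin into the aldehydes from which crosslinks form. Matricellular proteins such as SPARC and the thrombospondins bind to this meshwork and to cell receptors without forming fibrils themselves, and fat expansion in obesity is known to go with more matrix and more crosslinking.

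Sequence is shown for members on either side of the result that follows: Sparc, Nid1 and Serpinh1, which were lower after VSG, and Thbs2 and Fbln5, which were higher. RefSeq promoter windows (build GRCm38.p6) were matched by symbol for 30 of the 45 members; Thbs1, Fn1, Mgp, Eln, Mfap5, Lum, Dcn, Nid2, Lama4, Lamc1, Lox, Loxl1, Loxl2, Loxl3 and Plod2 were not matched. Each line gives the 250 bases before the annotated start, 5′ to 3′ on the gene's own strand, with capitals for matches, on either strand, to the TATA box TATAA, the GC box GGGCGG or the CAGA box CAGACA, the letters bound by SMAD proteins of the TGF-beta pathway. A TATAA match can overlap its own reverse complement. The windows are chr11:55420081-55420330, chr7:99353240-99353489, chr17:14694263-14694512 and chr12:101819120-101819369 on the minus strand and chr13:13437352-13437601 on the plus strand.
Sparc: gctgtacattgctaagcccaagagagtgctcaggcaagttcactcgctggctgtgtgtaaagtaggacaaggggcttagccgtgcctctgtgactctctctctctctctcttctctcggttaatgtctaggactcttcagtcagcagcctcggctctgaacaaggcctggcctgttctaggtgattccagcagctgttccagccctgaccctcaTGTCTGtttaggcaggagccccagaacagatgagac
Nid1: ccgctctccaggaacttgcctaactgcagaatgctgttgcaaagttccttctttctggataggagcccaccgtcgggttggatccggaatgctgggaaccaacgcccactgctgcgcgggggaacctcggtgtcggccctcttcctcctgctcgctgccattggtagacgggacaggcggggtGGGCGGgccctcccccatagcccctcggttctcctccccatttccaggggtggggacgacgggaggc
Serpinh1: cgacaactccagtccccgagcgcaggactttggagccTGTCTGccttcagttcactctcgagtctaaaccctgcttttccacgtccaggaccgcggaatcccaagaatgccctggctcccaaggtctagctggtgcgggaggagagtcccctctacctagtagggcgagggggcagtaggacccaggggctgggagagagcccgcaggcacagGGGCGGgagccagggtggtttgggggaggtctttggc
Thbs2: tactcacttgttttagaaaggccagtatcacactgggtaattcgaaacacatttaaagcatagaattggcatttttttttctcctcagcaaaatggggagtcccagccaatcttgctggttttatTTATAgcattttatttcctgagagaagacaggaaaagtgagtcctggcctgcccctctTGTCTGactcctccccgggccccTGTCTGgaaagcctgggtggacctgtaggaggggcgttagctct
Fbln5: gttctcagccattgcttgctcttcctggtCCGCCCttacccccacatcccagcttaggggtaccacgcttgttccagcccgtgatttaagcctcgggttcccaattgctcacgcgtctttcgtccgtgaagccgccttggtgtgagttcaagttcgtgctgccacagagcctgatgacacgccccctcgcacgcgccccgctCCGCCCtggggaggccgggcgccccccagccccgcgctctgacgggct

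Each of the 3 motifs was found in windows of both lower and higher members. TATAA was in 22.8% of all 32851 RefSeq windows and in 7 of the 30 member windows, among them 3 of 11 members lower after VSG and 1 of 4 higher. GGGCGG was in 32.7% of all windows and in 16 of the 30, among them 7 of the 11 lower members and 2 of the 4 higher. CAGACA was in 17.1% of all windows and in 7 of the 30, among them 2 of the 11 lower members, Sparc and Serpinh1, and 2 of the 4 higher, Thbs2 and Fbln1. A match describes the letters of the window and shows no binding.

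Recovered totals were 15.7 to 37.2 (median 24.4) times 1e6 reads per VSG library and 20.2 to 36.7 (median 27.3) times 1e6 per sham library. Adipocyte markers were abundant in every library: the 10 of them summed to 696378 to 1700301 normalized counts (median 1006358) in VSG libraries and 694488 to 1518750 (median 1094127) in sham libraries. Markers of other tissue were high in some libraries: the mean log2 value of 15 B cell and lymph node markers was 8.58 or higher in 5 libraries (4 VSG, 1 sham) and at most 6.92 in the rest, and that of 16 skeletal muscle markers was 7.76 or higher in 7 libraries (5 VSG, 2 sham) and at most 5.03 in the rest. Libraries of 2 sham animals stood apart in the results below. The library of sham ZT1 replicate 4 had the highest value of all 32 libraries for 22 of the 45 members, a fibroblast and progenitor marker mean of 12.5 against 10.6 to 11.7 in the other 31, and the largest sham weight loss, 8.96. The library of sham ZT19 replicate 4 (weight loss 7.89) had the lowest sham value for 12 of the 19 members that fell. In bulk tissue, fewer cells of a type and less RNA per cell cannot be told apart.

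Over all 4 times, Lox, Loxl2, Sparc, 4 of 6 collagen processing genes and 6 of 8 basement membrane genes were lower after VSG, while Fbln1, Fbln5, Efemp2 and Thbs2 were higher. The calls of Fbln1 and Efemp2 were lost with edgeR (adjusted p = 0.0722 for Fbln1 and 0.0669 for Efemp2). Of the 45 members 23 were called (limma, adjusted p under 0.05), against 39.2% of all 15588 genes tested. Of these, 19 fell, where 20.9% of all genes were called lower, and 4 rose, where 18.3% were called higher. The median log2 fold change of the 45 members was -0.17, beside 0.0125 over all genes, and 32 of the 45 were below 0. Each fold change is VSG over sham in units of log2(value + 1), with its standard error. With covariates for B cell and muscle transcripts 19 members were called, with 31.8% of all genes. With array weights 23 of the 45 were called, with 56.4% of all genes. Leaving out the 5 libraries with many B cell transcripts leaves 1 VSG library at ZT1. Leaving out the 7 with many muscle transcripts leaves 1 VSG library at ZT19.

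**Figure D1:**
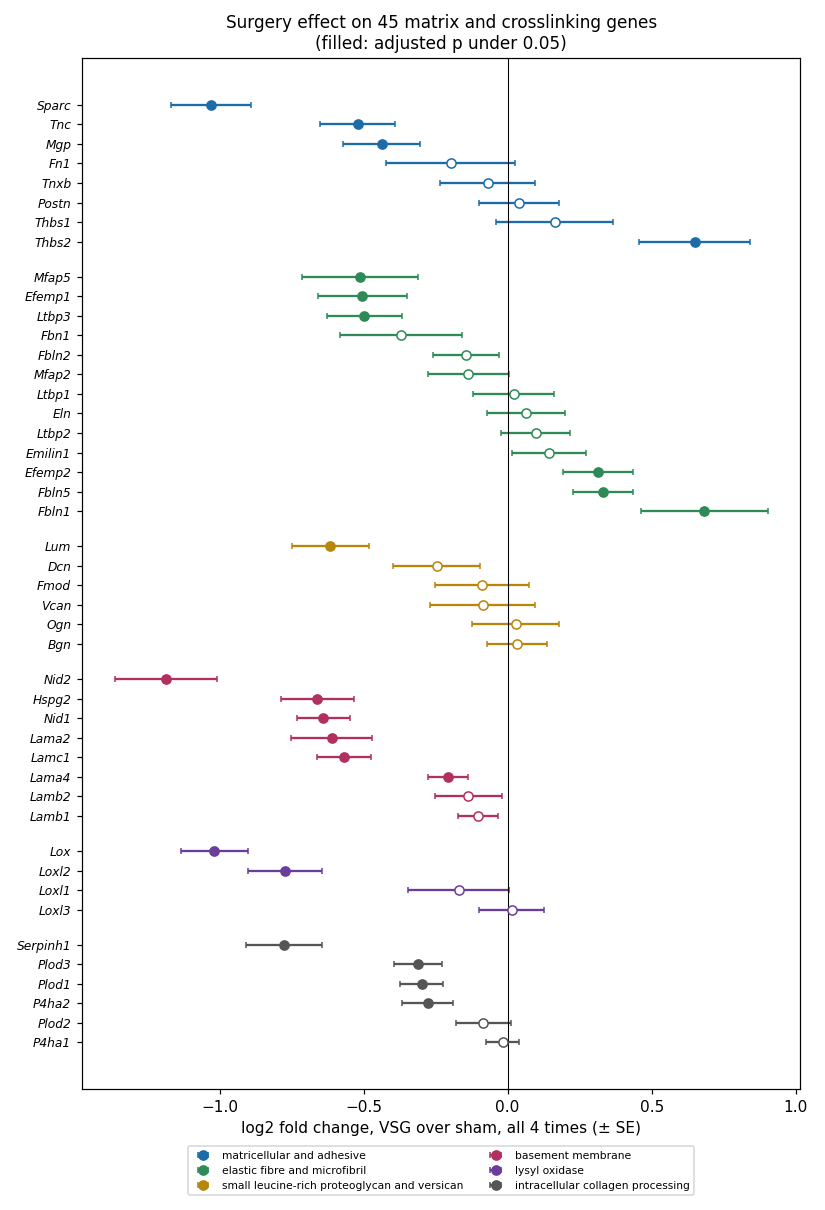
Log2 fold change of each of the 45 genes, VSG over sham, over all 4 times (points) with its standard error (bars), coloured by role and filled where the adjusted p was under 0.05. The filled points left of 0 include 6 of 8 basement membrane genes and 4 of 6 intracellular processing genes, and the 4 filled points right of 0 are Thbs2, Fbln1, Fbln5 and Efemp2.

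Of the 4 lysyl oxidase genes among the members 2 fell and none rose, and differences of fold change between the genes were not tested. Lox, the founding member, which crosslinks fibrillar collagen and elastin, had 1621 to 3550 normalized counts (median 2333) in the 16 VSG libraries and 2103 to 6074 (median 4698) in the 16 sham libraries. Every VSG value lay below the sham median, 15 of 16 sham values lay above every VSG value, and the remaining sham value was that of ZT19 replicate 4. The fold change was -1.02 ± 0.12 (2.03-fold lower, adjusted p = 1.23e-06), the smallest p among the members. Loxl2, which also crosslinks collagen IV of basement membranes, had 389 to 1223 (median 688) after VSG and 646 to 2560 (median 1176) after sham surgery (-0.77 ± 0.13, adjusted p = 5.93e-05), with 15 of 16 VSG values below the sham median. Loxl1, needed for elastic fibre upkeep, was not called (-0.17 ± 0.18, adjusted p = 0.461), and neither was Loxl3 (0.01 ± 0.11, adjusted p = 0.93), which had 253 to 660 (median 483) after VSG and 338 to 927 (median 462) after sham surgery. Levels between these genes can be set side by side only per length of annotated exon: Lox had a median of 488 normalized counts per kilobase after VSG and 983 after sham surgery, beside 925 and 1100 for Loxl1, 127 and 218 for Loxl2, and 105 and 100 for Loxl3. On that scale Lox made up 15.2% to 46.0% of the family (median 27.2%) in VSG libraries and 27.0% to 53.1% (median 38.4%) in sham libraries, and 13 of 16 VSG libraries lay below the sham median. The genes Loxl3 and Htra2 overlap on opposite strands, and Htra2 had a mean of 994 where Loxl3 had 481, so the reads of the pair cannot be told apart without strand.

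Of the 6 genes of intracellular collagen processing 4 fell and none rose. Serpinh1 (ENSMUSG00000070436, chr7:99345376-99353239, mm10), which encodes the collagen chaperone HSP47, had 9830 to 23306 normalized counts (median 15745) in VSG libraries and 15732 to 42248 (median 26085) in sham libraries. The groups overlapped in part, with 8 VSG values below every sham value and 11 sham values above every VSG value, and the fold change was -0.78 ± 0.13 (1.71-fold lower, adjusted p = 6.87e-05). The lysyl hydroxylase genes Plod1 and Plod3 fell less, by 0.30 ± 0.07 (adjusted p = 0.00253) and 0.31 ± 0.08 (adjusted p = 0.00401) on the log2 scale, yet all 16 VSG values of each lay below the sham median. Plod2, the lysyl hydroxylase of collagen telopeptides, was not called (-0.08 ± 0.09, adjusted p = 0.502). The catalytic subunits of prolyl hydroxylase differed in their calls: P4ha2 had 778 to 1454 (median 1197) after VSG and 913 to 1743 (median 1414) after sham surgery (-0.28 ± 0.09, adjusted p = 0.0157), and P4ha1 had 831 to 1439 (median 1206) after VSG and 968 to 1365 (median 1168) after sham surgery (-0.02 ± 0.06, adjusted p = 0.832). The difference between the 2 subunits was not tested. P4ha2 was not called when covariates for B cell and muscle transcripts were added (-0.13) or once the 7 muscle-rich libraries were left out (-0.27).

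Among the 8 matricellular and adhesive genes 3 fell and 1 rose. Sparc (ENSMUSG00000018593, chr11:55394500-55420080), whose product binds collagen and limits adipocyte differentiation in mouse cells, had the highest level per kilobase of the 45 members, a median of 32701 after VSG and 69366 after sham surgery. Its normalized counts were 80423 to 169144 (median 123870) in VSG libraries and 107331 to 378230 (median 262757) in sham libraries. Only the sham ZT19 replicate 4 value, 107331, lay inside the VSG range, and the fold change was -1.03 ± 0.14 (2.04-fold lower, adjusted p = 7.34e-06). Tnc, which encodes the injury-associated glycoprotein tenascin C, had 338 to 871 (median 562) after VSG and 447 to 1177 (median 723) after sham surgery (-0.52 ± 0.13, adjusted p = 0.00249). Mgp, an inhibitor of calcification, was lower as well (-0.44 ± 0.13, adjusted p = 0.0115). Thbs2, an antiangiogenic thrombospondin, went the other way, with 2272 to 6219 (median 3901) after VSG and 1283 to 8905 (median 2421) after sham surgery. In 14 of 16 VSG libraries Thbs2 was above the sham median, and the sham value of 8905 was that of ZT1 replicate 4 (0.65 ± 0.19, 1.57-fold higher, adjusted p = 0.00922). Its relative Thbs1 was not called (0.16 ± 0.20, adjusted p = 0.544), nor were Fn1 (fibronectin, -0.20 ± 0.22), Tnxb (tenascin X, -0.07 ± 0.17) and Postn (periostin), which had 5397 to 12970 (median 9253) after VSG and 5540 to 16890 (median 8482) after sham surgery (0.04 ± 0.14, adjusted p = 0.843).

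Of the 8 basement membrane genes 6 fell, none rose and all had a negative fold change. Nid1 (ENSMUSG00000005397, chr13:13437602-13512275), which encodes the nidogen that links laminin to collagen IV, had 10536 to 17311 normalized counts (median 13268) after VSG and 13211 to 29507 (median 21474) after sham surgery. All 16 VSG values lay below the sham median and 14 sham values lay above every VSG value (-0.64 ± 0.09, adjusted p = 1.47e-05). Nid2 (ENSMUSG00000021806, chr14:19751257-19811787), the second nidogen, had the lowest fold change of the 45 members, with 899 to 2385 (median 1561) after VSG and 1198 to 5066 (median 3816) after sham surgery (-1.19 ± 0.18, 2.27-fold lower, adjusted p = 2.01e-05). It overlaps 2700060E02Rik on the opposite strand, which had a mean of 1663 where Nid2 had 2553, so the reads of the pair cannot be told apart without strand. Per kilobase, the ratio of Nid1 to Nid2 was 4.97 to 10.9 (median 6.61) in VSG libraries and 3.11 to 11.2 (median 4.31) in sham libraries, and no VSG ratio lay below the sham median. Hspg2, the gene of perlecan, had 18342 to 33234 (median 26125) after VSG and 20247 to 65319 (median 43231) after sham surgery (-0.66 ± 0.13, adjusted p = 2.82e-04). Among the laminin chains Lamc1, the gamma chain of most laminins, had 5028 to 8714 (median 7071) after VSG and 6750 to 12443 (median 10767) after sham surgery (-0.57 ± 0.09, adjusted p = 4.7e-05), and the alpha chains Lama2 (-0.61 ± 0.14) and Lama4 (-0.21 ± 0.07) fell as well. The beta chains Lamb2 (-0.14 ± 0.12, adjusted p = 0.359) and Lamb1 were not called, the second with 4082 to 6923 (median 6148) after VSG and 4734 to 7493 (median 6013) after sham surgery (-0.10 ± 0.07, adjusted p = 0.244). Lama4 was not called under quantile normalization (-0.14) or with the B cell and muscle covariates (-0.12).

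**Figure D2:**
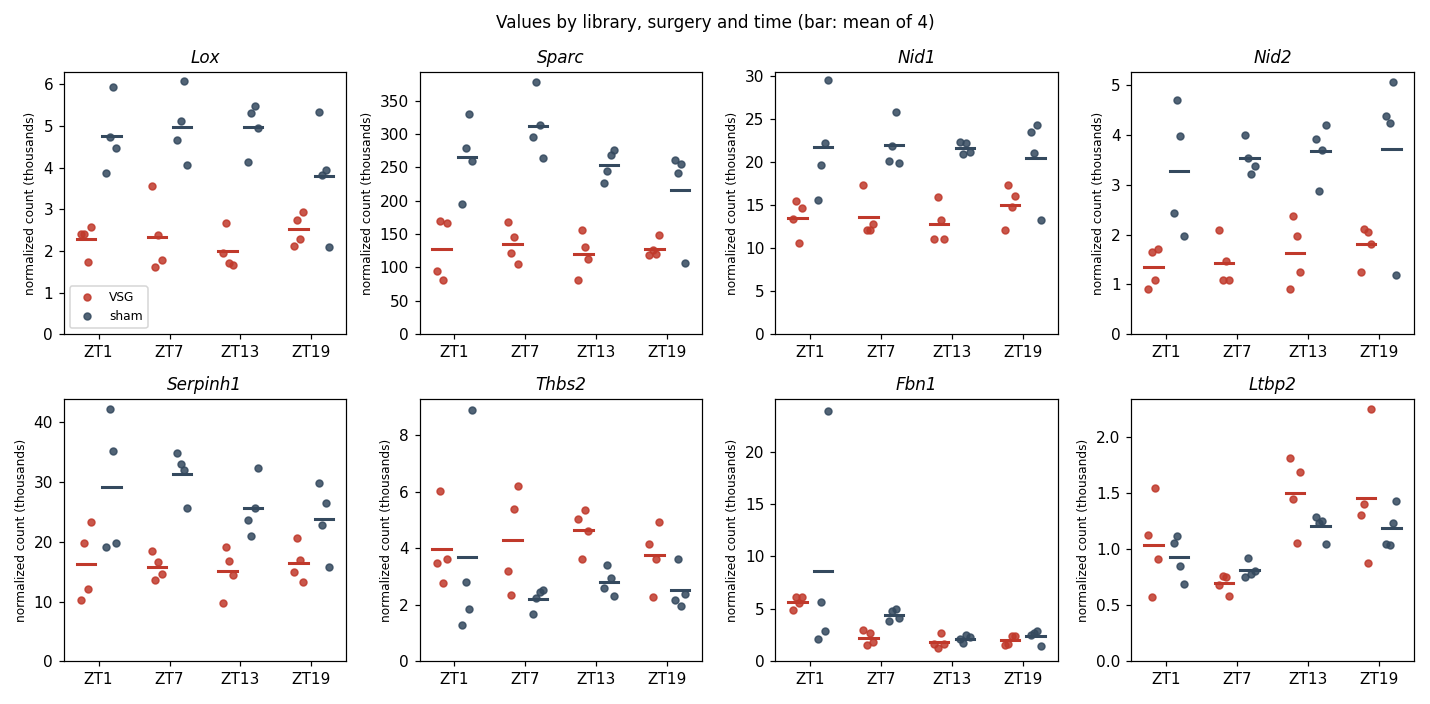
Normalized counts of 8 members in each library (points, scaled as the axes state) by surgery and zeitgeber time, with VSG left of sham at each time and a bar at the mean of 4 animals. Sparc and Lox had every VSG value below every sham value at ZT1, ZT7 and ZT13, and at ZT19 the low sham point is replicate 4.

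Elastic fibre and microfibril genes moved in both directions, with 3 of 13 lower, 3 higher and 7 not called. The 3 that rose, Fbln1, Fbln5 and Efemp2, encode fibulins, as do Efemp1, which fell, and Fbln2, which was not called (-0.14). Fbln1 had 487 to 1750 normalized counts (median 883) after VSG and 185 to 2271 (median 588) after sham surgery, with 12 of 16 VSG values above the sham median and the sham value of 2271 again from ZT1 replicate 4 (0.68 ± 0.22, 1.60-fold higher, adjusted p = 0.0159). Fbln5 had 2867 to 7126 (median 4884) after VSG and 2722 to 5729 (median 3734) after sham surgery (0.33 ± 0.10, adjusted p = 0.0136), with 14 of 16 VSG values above the sham median. Efemp2, the gene of fibulin 4, rose by 0.31 ± 0.12 (adjusted p = 0.0426). Beside edgeR, the call of Efemp2 was also lost with DESeq2, without the B cell-rich libraries and in 19 of 32 fits that left out 1 library. Efemp1, the gene of fibulin 3, fell (-0.50 ± 0.16, adjusted p = 0.0119), as did Ltbp3, a carrier of latent TGF-beta (-0.50 ± 0.13, adjusted p = 0.0038), and Mfap5, a microfibril glycoprotein gene (-0.51 ± 0.20, adjusted p = 0.0453). The call of Mfap5 was lost in 22 of 32 fits that left out 1 library, and both Mfap5 and Efemp1 were not called once the B cell-rich or the muscle-rich libraries were left out. Elastin itself, Eln, was not called (0.06 ± 0.14), nor were the fibrillin gene Fbn1 (-0.37 ± 0.21, adjusted p = 0.165), Fbln2, Mfap2, Emilin1, Ltbp2 and Ltbp1. Fbn1 was called lower with DESeq2 (-0.52, adjusted p = 0.0371) and without sham ZT1 replicate 1 (-0.48, adjusted p = 0.042), and it had -0.19 without sham ZT1 replicate 4 (adjusted p = 0.256). Ltbp1 had 572 to 1204 (median 780) after VSG and 529 to 2551 (median 781) after sham surgery (0.02 ± 0.14, adjusted p = 0.916).

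Of the 6 proteoglycans of the interstitial matrix, 1 was called. Lum, which encodes lumican, a regulator of collagen fibril assembly, had 1145 to 3159 normalized counts (median 1905) after VSG and 1970 to 4875 (median 2933) after sham surgery (-0.62 ± 0.13, adjusted p = 8.13e-04), with 8 VSG values below every sham value. Dcn, the gene of decorin, had 10552 to 25394 (median 16014) after VSG and 12974 to 58639 (median 17992) after sham surgery and was not called (-0.25 ± 0.15, adjusted p = 0.197). Bgn, the gene of biglycan, with the highest median level per kilobase of this role in both surgeries (3504 after VSG, 3160 after sham surgery), was not called either (0.03 ± 0.10, adjusted p = 0.83). Ogn had 1450 to 3539 (median 1866) after VSG and 1278 to 5373 (median 1883) after sham surgery (0.03 ± 0.15, adjusted p = 0.899), and Fmod and Vcan had fold changes of -0.09 ± 0.16 and -0.09 ± 0.18.

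Members also differed in how they varied between animals of the same group. With the mean of each of the 8 groups removed, the log2 values of the members were correlated over the 32 libraries with the mean of 10 collagen genes (Col1a1, Col1a2, Col3a1, Col5a1, Col5a2, Col4a1, Col4a2, Col6a1, Col6a2 and Col6a3). The points share libraries and normalization, so these values describe the libraries and carry no test. The correlation was 0.87 for Nid2, 0.85 for Sparc, 0.85 for Lamc1, 0.82 for Serpinh1, 0.78 for Hspg2 and 0.64 for Lox. It was 0.10 for Thbs2, 0.11 for Fbln1, 0.14 for Fbln5 and 0.28 for Efemp2, the 4 members that rose. Of the 18 members at 0.6 or above, 15 were called lower after VSG and the other 3, Loxl1, Lamb1 and Lamb2, had negative fold changes that were not called. Of the 27 members under 0.6, 4 were called lower (Tnc, Mgp, Mfap5 and Ltbp3) and 4 higher, and the median fold change was -0.0171, beside -0.59 for the 18. The limit of 0.6 was set with the values in view. The share called lower among all genes with such a correlation was not computed. Over all genes it was 20.9%. All libraries were kept here. The collagen mean was 13.5 in sham ZT19 replicate 4, against 14.4 to 14.8 in the rest of its group. In sham ZT1 replicate 1 it was 14.1, against 14.7 to 14.9.

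**Figure D3:**
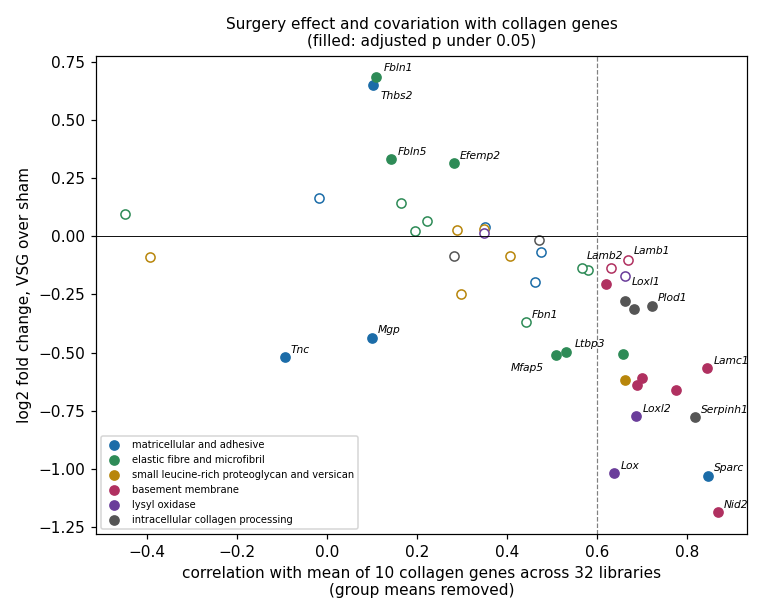
Log2 fold change of the 45 genes, VSG over sham, against the correlation of each gene with the mean of 10 collagen genes over 32 libraries after removal of the group means, coloured by role and filled where the adjusted p was under 0.05. All 18 genes right of the dashed line at 0.6 lie below 0 on the fold change axis, and the 4 called genes above 0 have correlations of 0.10 to 0.28.

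Other members, and 4 of these 18 (Efemp1, Lama2, Loxl1 and Loxl2), varied with fibroblast and progenitor markers. In the same residual values, the correlation with the mean of 12 such markers was 0.96 for Fn1, 0.93 for Fbn1, 0.91 for Ltbp1, 0.91 for Mfap5, 0.90 for Tnxb and 0.88 for Vcan, and it was 0.12 for Sparc, 0.03 for Lox, 0.00 for Nid2 and -0.02 for Serpinh1. Without sham ZT1 replicate 4 it was 0.92 for Fn1, 0.87 for Fbn1 and 0.82 for Ltbp1. The 18 members with a correlation of at least 0.5 included 4 called lower and 3 called higher, with a median fold change of -0.14. The other 27 included 15 called lower and 1 called higher, with a median of -0.28. Over all genes 20.9% were called lower and 18.3% higher, and the shares among all genes with such a correlation were not computed. The summed level of the 12 markers was 255417 to 431236 (median 366627) in VSG libraries and 210218 to 637270 (median 467539) in sham libraries, and 4 of them were called lower and 1 higher. With the mean of these markers as a covariate, 24 members were called in place of 23, with 40.4% of all genes in place of 39.2%.

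In the lists of related genes, more genes were called lower than higher after VSG. Of the 10 collagen genes 8 were called lower and none higher (median log2 fold change -0.79), led by p by Col5a2 (-0.82 ± 0.11), Col4a1 (-0.89 ± 0.12) and Col6a3 (-0.87 ± 0.13), while Col1a1 (-0.37 ± 0.17, adjusted p = 0.0921) and Col1a2 (-0.31 ± 0.14, adjusted p = 0.0889) were not called. Of 18 further genes of collagen modification tested 7 fell and 1 rose, led by Pcolce2, an enhancer of procollagen C-proteinase (-1.67 ± 0.21, adjusted p = 4.26e-06), the prolyl 3-hydroxylase gene P3h1 (-0.67 ± 0.10) and the procollagen N-proteinase gene Adamts2 (-0.66 ± 0.12). Of 30 relatives of the members tested 7 fell and 3 rose, with Lamb3 (-1.48 ± 0.16), Spock1 (-2.45 ± 0.31) and Sparcl1 (-0.44 ± 0.08) having the smallest p-values. Of 21 matrix receptors 7 fell and 3 rose, among them the laminin-binding integrin alpha chains Itga6 (-0.68 ± 0.10) and Itga7 (-0.79 ± 0.12) and the syndecan gene Sdc2 (-0.57 ± 0.09). Of 18 genes of the TGF-beta pathway 6 fell and 2 rose, among them the signal transducer gene Smad2, which fell (-0.35 ± 0.06, adjusted p = 7.4e-05). These shares of called genes, 80%, 44.4%, 33.3%, 47.6% and 44.4%, stand beside 39.2% of all genes.

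Markers of other cells moved with surgery too. All 8 neutrophil markers were called higher after VSG, with a summed level of 530 to 16854 (median 3439) in VSG libraries and 196 to 1026 (median 499) in sham libraries. Of the 10 macrophage markers 9 were called higher, with 22083 to 101846 (median 62344) after VSG and 18138 to 76941 (median 26526) after sham surgery. For the 4 members that rose, the residual correlation with the macrophage mean was 0.77 (Thbs2), 0.58 (Fbln1), 0.74 (Fbln5) and 0.75 (Efemp2). Among the members not called it ran from -0.57 for Ltbp2 to 0.78 for Loxl3, with 0.64 for Emilin1 and 0.63 for Tnxb. The residual correlation of the 4 members that rose with the fibroblast and progenitor mean was 0.695 (Thbs2), 0.85 (Fbln1), 0.43 (Fbln5) and 0.81 (Efemp2). Of the 8 mural and smooth muscle markers 3 were called lower and 1 higher, with 16739 to 38329 (median 30223) after VSG and 26602 to 48316 (median 41642) after sham surgery. Of the 10 endothelial markers 2 were lower and 1 higher, with 48472 to 83620 (median 64899) after VSG and 51258 to 89236 (median 62137) after sham surgery. Of the 10 adipocyte markers 3 fell, Lep, Cidec and Retn. The 15 B cell and lymph node markers match 16 gene rows, of which 4 were called higher and 1, Ighm, lower (-1.75 ± 0.35, adjusted p = 3.34e-04). Their summed level was 4200 to 124650 (median 7956) after VSG and 8432 to 100629 (median 43459) after sham surgery. The sum and the single rows differ in direction: Ighm was the 1 row of 16 with a negative fold change. The mean log2 value of the list had a median of 6.01 after VSG and 5.81 after sham surgery. The residual correlation with the mean of the B cell and lymph node markers was below -0.7 for 5 members, Lamb2 (-0.82), Lamb1 (-0.82), Lamc1 (-0.75), P4ha2 (-0.73) and Lama4 (-0.71). It was -0.66 for Sparc, -0.65 for Serpinh1, -0.58 for Hspg2, -0.48 for Nid2 and -0.26 for Lox. Of 7 Schwann cell markers 5 were called higher and 1 lower, and of 15 skeletal muscle markers tested 1 was called higher. None of these markers was at 0 in every library of a surgery. Beyond the fits above with B cell and muscle covariates or without the libraries rich in them, the part of these cells in the fold changes was not tested.

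The surgeries were also compared within each time, 4 VSG animals against 4 sham animals. For ZT1, 5 members were called, all lower (Lox, Sparc, Tnc, Nid1 and Nid2), where 4.34% of all genes were called lower. At ZT7 9 were called, all lower (Lox, Loxl2, Sparc, Lum, Nid2, Nid1, Serpinh1, Lama2 and Lamc1), where 3.36% of all genes were. At ZT13 5 were called, all lower (Lox, Nid1, Sparc, Lamc1 and Nid2), where 5.72% of all genes were. At ZT19 no member was called by limma, 0% of all genes was, and 6 of the 45 (13.3%) had an unadjusted p under 0.05, as did 6.88% of all genes. Here edgeR and DESeq2 called 0 members, with 0% and 0.398% of all genes, and limma with array weights called 7, with 5.81% of all genes.

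Lox showed the pattern in single animals. At ZT13 it had 1938, 2657, 1701 and 1661 normalized counts in VSG animals, against 4126, 5308, 5479 and 4961 in sham animals, with no overlap (-1.34 ± 0.23, adjusted p = 0.00332). At ZT19 it had 2116, 2747, 2280 and 2927 in VSG animals, against 5324, 3830, 3936 and 2103 in sham animals, and the last sham value, of replicate 4, lay below every VSG value (-0.53 ± 0.23, adjusted p = 0.695). Nid1 at ZT13 had 11038, 15894, 13214 and 11044 in VSG animals, against 22304, 20872, 22242 and 21118 in sham animals (-0.77 ± 0.19, adjusted p = 0.0149). Tnc at ZT1 had 695, 404, 583 and 386 in VSG animals, against 1033, 1167, 1177 and 725 in sham animals (2.01-fold lower, adjusted p = 0.0274). Loxl2 at ZT7 had 942, 389, 671 and 497 in VSG animals, against 1316, 1355, 1721 and 1215 in sham animals (-1.23 ± 0.26, adjusted p = 0.0112). In these 4 members the groups did not overlap at the times named, apart from Lox at ZT19. The other times named were those at which the member was called, which favours a lack of overlap. The share of all genes without overlap was not computed.

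**Figure D4:**
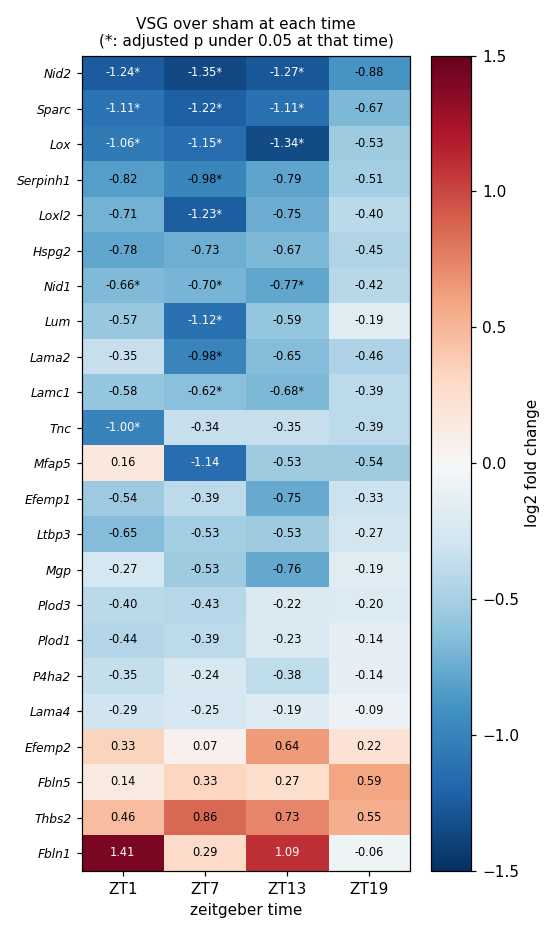
Log2 fold change, VSG over sham, at each zeitgeber time (columns) for the 23 members called over all times (rows), with blue for lower and red for higher after VSG and a star where the adjusted p at that time was under 0.05. Sparc, Lox, Nid1 and Nid2 carry a star at ZT1, ZT7 and ZT13, and no gene carries one at ZT19.

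Most members called over all times kept their sign at each time, which their choice by the pooled fold change favours. Of the 19 members that fell over all times 18 had a negative fold change at all 4 times, the exception being Mfap5, and of the 4 that rose 3 had a positive one at all 4, the exception being Fbln1. The median fold change of the 19 was -0.58 at ZT1, -0.70 at ZT7, -0.67 at ZT13 and -0.39 at ZT19, and 16 of them had their smallest change in size at ZT19. A difference between times was not shown: the interaction of surgery and time called 0 members and 0% of all genes in limma, 0 of the 45 had an unadjusted p under 0.05, and edgeR and DESeq2 called 0. The counts at single times depended on single libraries, and the share of all genes called in either direction under the same fit is given in brackets. At ZT1 the count was 0 without VSG ZT1 replicate 3 (0.282%), sham ZT1 replicate 2 (0.167%) or sham ZT1 replicate 3 (0.135%), and 2 without VSG ZT1 replicate 1 (0.488%). It was 14 without sham ZT1 replicate 1 (18.4%), 16 without sham ZT1 replicate 4 (11.6%) and 9 without sham ZT19 replicate 4 (8.12%). At ZT7 it was 0 without VSG ZT7 replicate 4 (0.526%), 2 without sham ZT7 replicate 1 (0.526%), and 3 without VSG ZT7 replicates 2 (2.31%) or 3 (0.686%) or sham ZT7 replicates 2 (1.05%) or 3 (1.5%). At ZT13 it was 1 without VSG ZT13 replicate 1 (1.26%), 3 without VSG ZT13 replicate 3 (2.33%) and 8 without VSG ZT13 replicate 2 (17.7%). It was 2 without sham ZT13 replicate 3 (2.69%), 3 without sham ZT13 replicates 1 (5.24%) or 4 (3.52%), 8 without sham ZT1 replicate 1 (12.6%) and 9 without sham ZT1 replicate 4 (11.4%). At ZT19 it was 1 without sham ZT19 replicate 4 (0.295%). With the B cell-rich libraries left out, where ZT1 has 1 VSG library assumed to vary like the other groups, the counts were 0 at ZT1 (0.0192%), 10 at ZT7 (8.14%), 2 at ZT13 (2.32%) and 0 at ZT19 (0%). With the muscle-rich libraries left out, where ZT19 has 1 VSG library, they were 9 at ZT1 (5.4%), 10 at ZT7 (3.74%), 0 at ZT13 (0.295%) and 0 at ZT19 (0%).

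Whether the members themselves changed over the day was asked within each surgery. In VSG animals 1 member was called, where 1.52% of all genes were: Ltbp2, a microfibril protein of the latent TGF-beta binding family (F test over 4 times in limma, adjusted p = 0.0356). Its mean was 1040 ± 407 at ZT1, 694 ± 83.0 at ZT7, 1500 ± 332 at ZT13 and 1458 ± 575 at ZT19 (SD, n = 4 each). All 4 values at ZT13, 1055 to 1809, and all at ZT19, 881 to 2252, lay above the 4 at ZT7, 582 to 763. Markers of other tissue moved over the same times: in VSG animals all 16 B cell gene rows and 9 of 15 skeletal muscle markers had an unadjusted p under 0.05 for time. The B cell-rich VSG libraries were 3 of ZT1 and 1 of ZT13. The muscle-rich ones were 1 of ZT1, 1 of ZT13 and 3 of ZT19. The residual correlation of Ltbp2 with the B cell markers was 0.55. Its call held without the B cell-rich libraries (adjusted p = 0.0214), without the muscle-rich ones (adjusted p = 0.00256) and with both lists as covariates (adjusted p = 0.00761). In sham animals no member was called, where 1.64% of all genes were, 5 of the 45 (11.1%) had an unadjusted p under 0.05, as did 15% of all genes, and edgeR and DESeq2 called 1. Ltbp2 there had 929 ± 197, 814 ± 75.3, 1205 ± 108 and 1186 ± 186 at the same times (SD, n = 4 each, adjusted p = 0.362). With a 24 h cosine Ltbp2 had an amplitude of 0.58 log2 units and a peak at ZT17.0 after VSG (adjusted p = 0.0487), and 0.33 and ZT16.6 after sham surgery (adjusted p = 0.319). The call of Ltbp2 after VSG was lost in 7 of the 32 fits that left out 1 library, those without each of VSG ZT7 replicates 1 to 4, VSG ZT1 replicate 1, VSG ZT13 replicate 4 and VSG ZT19 replicate 2 (adjusted p = 0.0544 to 0.0754), and the count was 5 without sham ZT1 replicate 4 and 2 without sham ZT1 replicate 1. In sham animals it was 1 without sham ZT1 replicate 1. These counts carry no share of all genes in the same fit, so they show no change particular to the members.

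Fbn1, the main structural gene of microfibrils, had the second-smallest p for time in VSG animals (adjusted p = 0.0666) and the smallest in sham animals (adjusted p = 0.157). In VSG animals it had 4914, 6116, 5520 and 6106 at ZT1, all above the 1247 to 2985 at the other 3 times. The mean log2 value of the 12 fibroblast and progenitor markers, whose residual correlation with Fbn1 was 0.93, was 11.5 to 11.7 in these 4 libraries and 10.6 to 11.6 in the other 12 VSG libraries. Of the 12 markers 6 had an unadjusted p under 0.05 for time, with 1 called. Their part in the change of Fbn1 over time was not tested. In sham animals it had 2160, 5679, 2910 and 23864 at ZT1, where the last value is that of replicate 4, 3858 to 5034 at ZT7 and 1452 to 2873 at ZT13 and ZT19. At ZT7 the surgeries did not overlap, with 1563 to 2985 in VSG animals and 3858 to 5034 in sham animals.

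Weight loss was then related to the members within each surgery, with a mean fitted for each time. Among VSG animals 1 member was called, where 1.77% of all genes had a called positive slope: Emilin1, a microfibril-associated glycoprotein of elastic fibres, rose with weight loss by 0.0824 ± 0.0201 log2 units per unit of weight loss (adjusted p = 0.0442). Macrophage markers rose with weight loss in the same animals, with 6 of 10 called higher. Of 8 neutrophil markers 7 had an unadjusted p under 0.05 and none was called. The residual correlation of Emilin1 with the macrophage markers was 0.64. Their part in the slope of Emilin1 was not tested. The lowest value, 698, was in the animal with a loss of 13.41 and the highest, 1757, in the animal with a loss of 22.8. The next smallest p-values belonged to P4ha2 (-0.0530 ± 0.0156, adjusted p = 0.0785) and Lamc1 (-0.0478 ± 0.0141, adjusted p = 0.0789), which were not called. All 8 basement membrane genes had a negative slope among VSG animals, and 29 of the 45 members did. The call of Emilin1 held in 3 of the 16 fits that left out 1 VSG library, those without ZT1 replicate 2 (where 4 members were called), ZT1 replicate 3 or ZT7 replicate 3. It was lost in the other 13, with an adjusted p of up to 0.129, and the slope was 0.0723 to 0.0919 over the 16. The count of 4 without ZT1 replicate 2 carries no share of all genes in that fit.

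Among sham animals no member was called, where 0.00642% of all genes was, and 20 of the 45 (44.4%) had an unadjusted p under 0.05, as did 15.6% of all genes. Here edgeR called 0 members and DESeq2 13, with 0.0128% and 3.73% of all genes. In limma 3 were called without sham ZT13 replicate 2 and 4 without sham ZT19 replicate 1. Those 2 counts carry no share of all genes in the same fit, so they show no change particular to the members. The smallest p-values belonged to Ogn (0.224 ± 0.0388), Dcn (0.221 ± 0.0445) and Ltbp1 (0.202 ± 0.0440), each with an adjusted p of 0.0847. Of the 45 slopes 33 were positive. The 44.4% share and these 33 slopes include sham ZT1 replicate 4, which lost 8.96, against 2.15 to 2.63 in the other sham animals of ZT1. That library had the highest value of all 32 for 22 of the 45 members. The difference of the slopes, VSG minus sham, called the same 3 genes, Dcn (-0.248 ± 0.0472, adjusted p = 0.018), Ltbp1 (-0.224 ± 0.0453, adjusted p = 0.0255) and Ogn (-0.239 ± 0.0485, adjusted p = 0.0255), where 0.423% of all genes were called lower. The values of all 3 rested on sham ZT1 replicate 4: Dcn had 58639 in that animal, against 13937, 12974 and 13480 in the other 3 sham animals of ZT1. Without it no member was called and the differences were -0.0744 for Dcn, -0.0637 for Ltbp1 and -0.0986 for Ogn (adjusted p = 1.00 each). The count was also 0 with the fibroblast markers as a covariate and without the 2 animals of each surgery farthest from its median weight loss. It was 1 without sham ZT1 replicate 3 or VSG ZT19 replicate 1, 8 without sham ZT19 replicate 1 and 7 without sham ZT19 replicate 4. Counts with a single library left out carry no share of all genes here, so they show no change particular to the members.

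**Figure D5:**
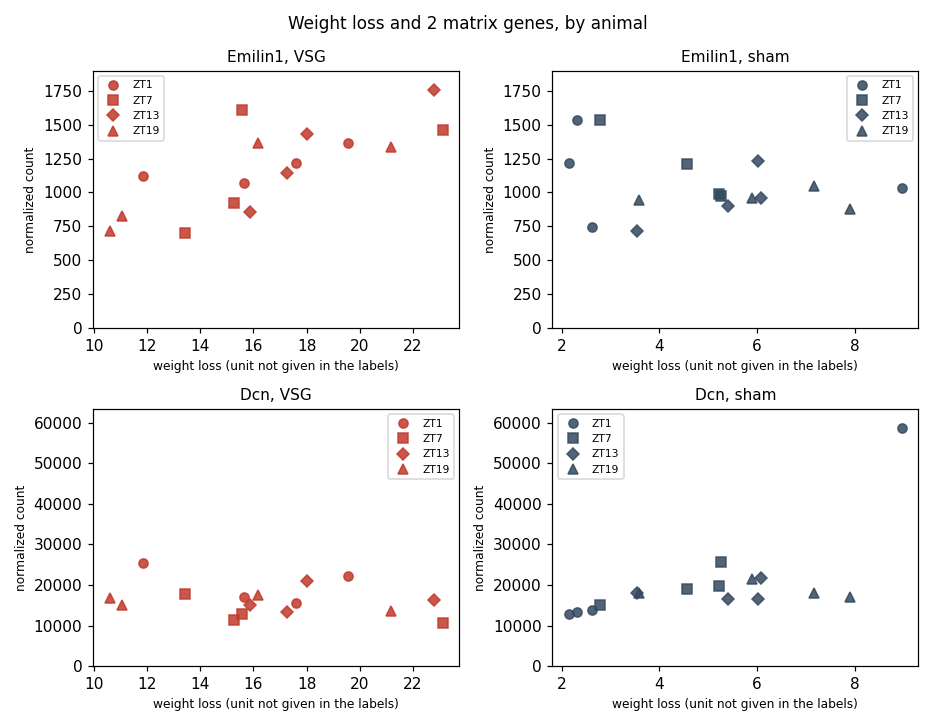
Normalized counts of Emilin1 and Dcn against the weight loss of each animal, with VSG animals left and sham animals right and symbols for the zeitgeber time. Emilin1 lies between 698 and 1757 in VSG animals, and Dcn in sham animals shows the value of 58639 at a weight loss of 8.96 apart from the rest.

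With weight loss as a covariate, surgery called 0 members and 0% of all genes in limma, 4 of the 45 (8.89%) had an unadjusted p under 0.05, as did 5.54% of all genes, and edgeR and DESeq2 called 0. The median fold change of the members was then -0.34 and 39 of the 45 were below 0. Since the weight losses of the surgeries do not overlap, this fit extends the slope beyond the animals measured in either surgery.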

How the data were processed

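RNA from subcutaneous fat was sequenced from 32 animals (TruSeq version 2 libraries, per the labels' protocols). The submitters' processing notes name STAR 2.5.2a, featureCounts 1.5.0-p1, DESeq2 1.24.0 and the build mm10, while strand use in counting is not stated there. Signal values, as deposited by the authors, are reads per gene scaled by 1 factor per library. Whole reads were recovered for 100% of values (tolerance 0.001). Libraries of a group differed by 19.6 to 172 in chi-square per degree of freedom over 48 pairs, so none was counted as 1 sample with another.

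Genes with a mean of at least 10 were kept (15588 of 18124). log2(value + 1) was fitted with limma 3.58.1 with a mean-variance trend, Benjamini-Hochberg adjustment over all genes and calls at an adjusted p under 0.05. The model had a mean for each of the 8 groups, with weight loss slopes where named. Exon lengths came from GENCODE M21. Alternatives were other pseudocounts, filters and scalings, array weights, covariates, fewer libraries, and edgeR 4.0.16 and DESeq2 1.42.0 on whole reads. Steps were tested on simulated counts. The members, lists and limits were chosen with earlier results of these data known. Any member may be named. Given in full were the 8 smallest p-values for surgery, the largest and smallest change of each role, the 3 smallest p-values for weight loss in VSG animals, and genes called or first over time; values of others were added after they were seen. Of other lists at most 3 genes were named, and Loxl4 was added to these later. The values of 1 gene of these lists are not reported here.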

Additional observations from a re-analysis of the deposited data

Results flagged for a closer look

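In 14 of 176 groups of 4 animals, for 22 genes, 1 library lay apart from the other 3 by Dixon's test. Chance flags about 1 in 20 such groups. Sham ZT1 replicate 4 was high in Dcn (58639, against 12974 to 13937 in the other 3), Fbn1 (23864, against 2160 to 5679), Ogn (5373, against 1278 to 1369), Loxl2 (2560, against 1045 to 1301) and Loxl3 (927, against at most 474). Sham ZT19 replicate 4 was low in Sparc (107331, against 241055 to 261245) and Hspg2 (20247, against 40506 to 44246). VSG ZT7 replicate 1 was high in Nid1 (17311, against 12037 to 12791) and Lum (2456, against 1145 to 1365) and low in Lamb1 (4385, against 5031 to 5116).

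The other 4 were single libraries. Postn was low in VSG ZT1 replicate 3 (5457, against 10807 to 11092) and high in sham ZT19 replicate 2 (7236, against 6204 to 6251). Fbln1 was low in sham ZT7 replicate 2 (415, against 668 to 700), and Ogn was high in VSG ZT13 replicate 3 (3539, against 1633 to 1862).

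The weight loss slope differed between the surgeries, VSG minus sham, for Dcn (-0.248), Ltbp1 (-0.224) and Ogn (-0.239), each tested as a difference of slopes in limma. None of the 3 was called without sham ZT1 replicate 4.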

How the results depend on the processing

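No paired analysis was possible because the labels give no replicate numbers that tie animals of different groups together. The count of members called for surgery over all times was 19 to 24 over the alternatives. The 19 came with B cell and muscle covariates (31.8% of all genes) and the 24 with the fibroblast covariate (40.4%). With array weights the count was 23, where 56.4% of all genes were called. When each library was left out it was 21 to 23, with 35.2% to 44.3% of all genes called. Of the 23 calls 17 were kept in all 13 alternatives and 32 such fits. For the interaction and for surgery at equal weight loss, 0 members were called under each alternative run for them. In brackets is the share of all genes called under the same fit. Counts below without such a share show no change particular to the members. Array weights gave 13 calls at ZT1 (25.2%), 21 at ZT7 (26.3%), 16 at ZT13 (34.5%), 7 at ZT19 (5.81%), 3 for time in VSG (7.76%), 5 for time in sham (13.8%) and 4 for weight loss in VSG animals (12.9%). B cell and muscle covariates gave 1 at ZT1, 2 for time in VSG (0.616%), 2 for weight loss in VSG (4.32%), 7 in sham (2.69%) and 9 for the slope difference (4.42%). The fibroblast covariate gave 11 at ZT13 (11.2%), 2 for time in VSG (0.584%), 1 for time in sham (1.32%) and 0 for the slope difference (0%). The 8 libraries of a time alone gave 0 at ZT1 (0%), 15 at ZT7 (6.59%) and 12 at ZT13 (9.73%). DESeq2 gave 11 at ZT1 (9.74%), 8 at ZT13 (16%), 3 for time in VSG (11.3%), 1 for time in sham (9.17%), 3 for weight loss in VSG (8.39%), 13 in sham (3.73%) and 7 for the slope difference (2.69%). With edgeR there were 2 for time in VSG (4.54%), 1 for time in sham (4.4%), 0 for weight loss in VSG (2.41%) and 6 for the slope difference (0.917%). Quantile normalization gave 2 for time in VSG and 0 for weight loss in VSG. Leaving out B cell-rich libraries gave 0 at ZT1, 2 at ZT13, 0 for weight loss in VSG and 1 for the slope difference. Leaving out muscle-rich ones gave 9 at ZT1, 0 at ZT13, 2 for time in VSG, 0 for weight loss in VSG and 0 for the slope difference, and leaving out the 2 animals farthest in weight loss gave 0 for both of the last. With each library left out the counts were 0 to 16 at ZT1, 0 to 12 at ZT7, 1 to 9 at ZT13, 0 to 1 at ZT19, 0 to 5 for time in VSG, 0 to 1 for time in sham, 0 to 4 for weight loss in VSG, 0 to 4 in sham and 0 to 8 for the slope difference. The muscle-rich libraries include sham ZT1 replicate 4 (muscle marker mean 7.98). Without that library alone 16 members were called at ZT1 (11.6%) and none for the slope difference. The cause of the changes in these counts was not tested. Genes under a mean of 10 were not tested in the main analysis, and p-values measure the spread between animals of these groups.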
